A study of Oryctolagus cuniculus with 39 samples.

Results

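The stromal vascular fraction (SVF) of 2 brown fat depots of the rabbit was compared at 6 weeks of age: interscapular brown adipose tissue (iBAT), which lies between the shoulder blades, and subscapular brown adipose tissue (sBAT), which lies beneath them. The SVF is what remains of the tissue once the fat cells are taken off, and it holds the fat cell progenitors, fibroblasts, vessels and immune cells. The comparison used 6 of the 39 samples of the series, 3 libraries of iBAT SVF and 3 of sBAT SVF, chosen by their labels. All 6 came from New Zealand White rabbits aged 6 weeks, and the labels name no treatment and no genetic change in any group. Total RNA was sequenced in bulk, and levels were given as FPKM, a fragment count adjusted for transcript length and library size. Of the 20589 genes in the deposited table, 11846 had a scaled FPKM of 1 or more in at least 3 of the 6 libraries and were tested. The other SVF groups, from day 1 and from 3 and 12 weeks, entered only the scaling between libraries, the estimate of the spread and the comparison of ages.

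Brown adipose tissue burns fuel to make heat through the mitochondrial protein UCP1. In rabbits, as in humans, the interscapular depot is brown at birth and turns into white-like fat as the animal grows. Progenitors in the stroma make new fat cells, and they also secrete collagen and signalling proteins. Stromal cells from different parts of the body keep different sets of HOX and other positional transcription factors from the embryo.

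The fraction held the transcripts of stromal cells. PDGFRA, a receptor carried by fat cell progenitors, stood at 33.7 to 61.6 FPKM in iBAT SVF and at 40.0 to 62.1 in sBAT SVF. CD34, another progenitor marker, stood at 353 to 485 and at 270 to 362. UCP1 was listed at 0 in 2 of the 3 iBAT libraries and at 0.0445 in the other, against 1.37, 5.54 and 0.544 FPKM in the sBAT libraries, and it was too low to be tested. ADIPOQ, the fat cell hormone adiponectin, was present at 364 to 1269 FPKM in iBAT SVF and at 253 to 678 in sBAT SVF.

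Libraries correlated at r = 0.952 to 0.976 within a depot and at 0.931 to 0.976 between depots (Pearson, across genes). Along the leading principal component (40.6% of the variance) the iBAT libraries, at -23.3 to -19.7, lay apart from the sBAT libraries, at 26.5, 29.2 and 9.87. The sBAT library nearest to iBAT was replicate 3. Within their depot, 2 libraries stood apart. In sBAT replicate 2, ADORA1 and LOC100009266 together took 19.2% of all FPKM, against 1.10% and 0.734% in the other sBAT libraries and at most 0.602% in iBAT. In iBAT replicate 3, the endothelial junction genes CDH5 and PECAM1 stood at 176 and 201 FPKM, against at most 46.0 and 74.9 in the other iBAT libraries, and MKI67, a proliferation marker, stood at 9.03 against at most 2.92. MKI67 was also at 8.32 FPKM in sBAT replicate 2. The labels do not say that the replicates came from separate animals, so the p-values measure the spread between these samples, which may be technical. The deposited FPKM carry no read counts, and the depth behind each value is unknown.

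Between the depots, 157 of the 11846 tested genes differed (1.33%) at an adjusted p under 0.05 (limma, Benjamini-Hochberg over all tested genes). Of these, 82 were higher in iBAT SVF (0.692%) and 75 were higher in sBAT SVF (0.633%). At an unadjusted p under 0.05 the shares were 7.73% and 6.11% of all tested genes. The values of the depots did not overlap in 25.3% of all tested genes, and the 24 leading genes, shown by library, were chosen among those. The genes higher in iBAT SVF included some of collagen fibres, of the secretory route and of early progenitors, and those higher in sBAT SVF included some of fat storage, sterol synthesis, leukocytes and nerve sheath. The groupings of the secretory route and of sterol synthesis were made after the values had been seen. The fold changes are on the scale of log2(scaled FPKM + 1), which understates the change of low genes, and they are given as iBAT minus sBAT. Without sBAT replicate 2 the test called 43 genes, of which 42 were among the 157, and without sBAT replicate 1 it called 37. On the deposited values without median ratio scaling, where the median of all genes shifted to -0.24, 47 genes were higher in iBAT SVF and 316 in sBAT SVF. All directions below are relative to the median gene.

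**Figure D1:**
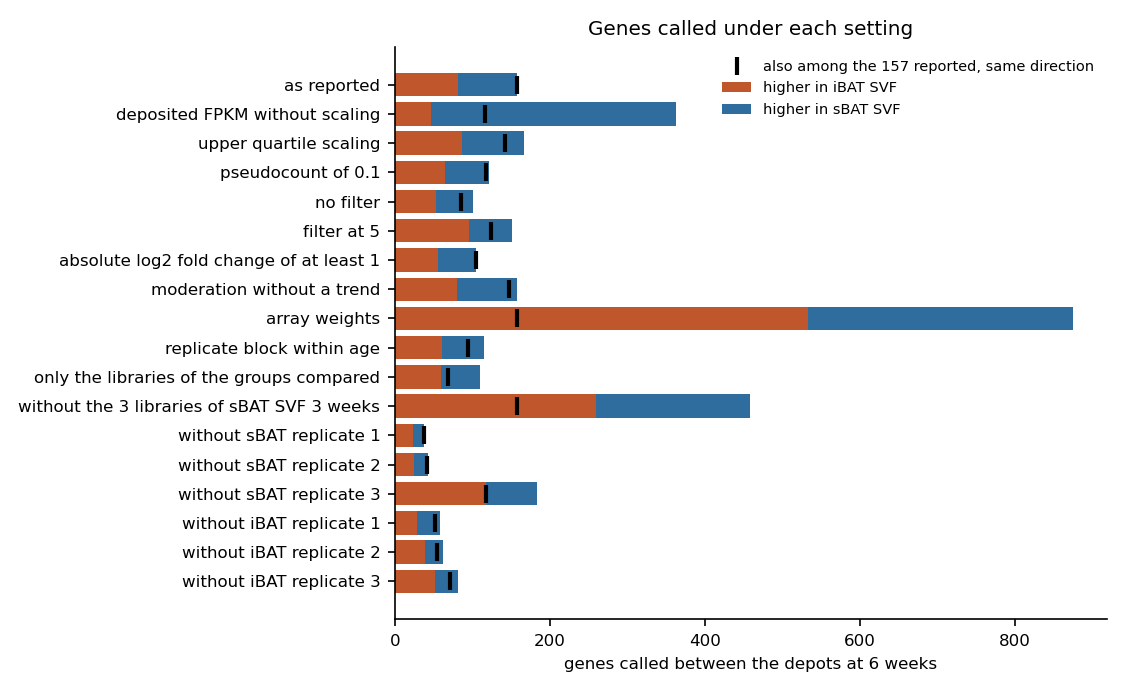
Number of genes called between the depots at 6 weeks under each setting, split into higher in iBAT SVF (orange) and higher in sBAT SVF (blue), with a black tick at the number that are also among the 157 in the same direction. The total runs from 37 without sBAT replicate 1 to 875 with array weights.

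**Figure D2:**
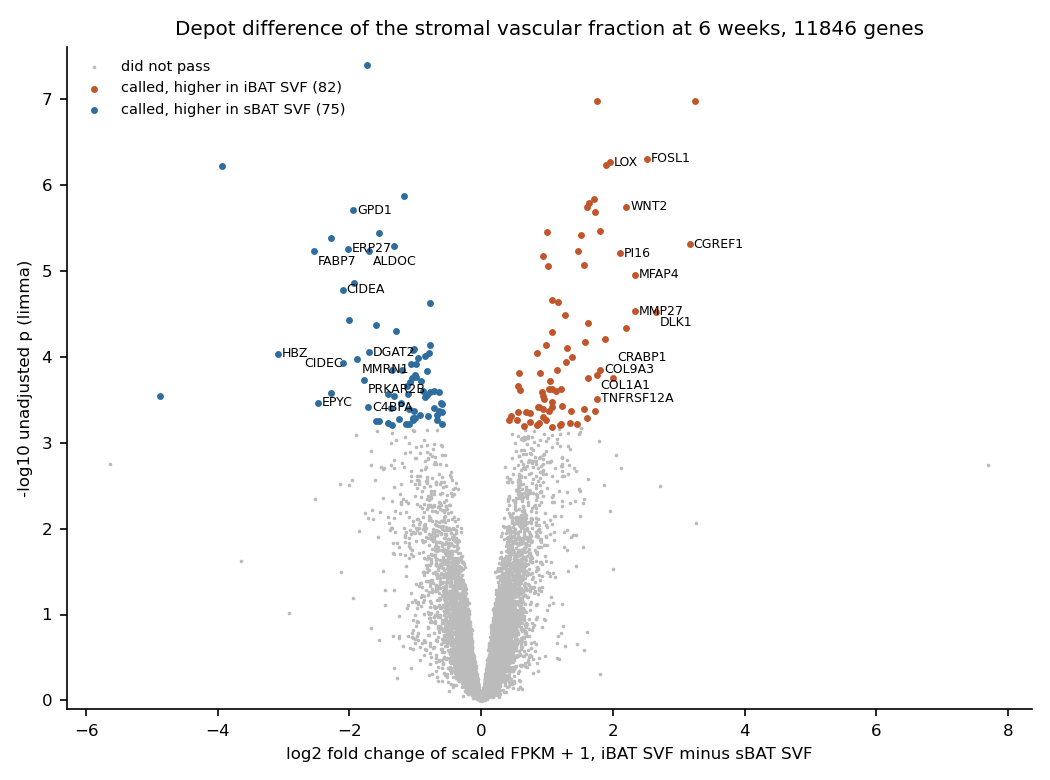
Each point is 1 of the 11846 tested genes, with the log2 fold change of scaled FPKM + 1 (iBAT SVF minus sBAT SVF) across and -log10 of the unadjusted limma p upwards. Orange points are the 82 genes higher in iBAT SVF, blue points the 75 higher in sBAT SVF, grey points did not pass; the 12 leading genes of each direction are labelled, from CGREF1 at 3.17 to HBZ at -3.09.

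Genes of early fat cell progenitors gave several of the largest differences. In the adipose progenitor list, 4 of the 35 tested members were higher in iBAT SVF against 1 higher in sBAT SVF. Among all tested genes the shares were 0.692% and 0.633%. The median log2 fold change of the list was 0.30, against 0.00 over all tested genes. DLK1, an imprinted surface protein that holds preadipocytes back from maturing, stood at 288, 702 and 297 FPKM in the iBAT libraries and at 84.0, 31.8 and 86.8 in the sBAT libraries. All 3 iBAT values lay above all 3 sBAT values, with iBAT replicate 2 the highest. Its log2 fold change was 2.65 ± 0.49 (SE; limma adjusted p = 0.00946).

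PI16, a marker of the early progenitors of the interstitial connective tissue, stood at 1206, 1060 and 1728 FPKM in iBAT SVF against 260, 231 and 452 in sBAT SVF. The difference was 2.11 ± 0.35 on the log2 scale (limma adjusted p = 0.00276). WNT2, a secreted WNT ligand that marks the same kind of progenitor, stood at 53.5, 46.1 and 56.0 FPKM against 9.66, 7.90 and 14.8. The iBAT values of WNT2 were close together and far above the highest sBAT value. Its log2 fold change was 2.204 ± 0.33 (limma adjusted p = 0.00165).

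CD248, a stromal surface glycoprotein, was higher in iBAT SVF as well, at 408 to 567 FPKM against 141 to 207 (limma adjusted p = 0.0476). The member higher in sBAT SVF was C4BPA, a plasma regulator of complement that was on the list. C4BPA stood at 86.7, 58.9 and 58.9 FPKM in iBAT SVF and at 311, 182 and 197 in sBAT SVF (log2 fold change -1.72, limma adjusted p = 0.0409). It lost the call in 8 of 17 alternatives, among them without any 1 of the 6 libraries. At an unadjusted p under 0.05, 10 members lay on the iBAT side and 2 on the sBAT side. Of all tested genes 7.73% and 6.11% did. DCN, the matrix proteoglycan decorin, overlapped between the depots and ranged from 4051 to 9165 FPKM in iBAT SVF and from 5368 to 7885 in sBAT SVF. Summed over the list, levels overlapped too, at 15800 to 26600 FPKM against 18900 to 24400. Without sBAT replicate 2, 2 members were called higher in iBAT SVF and 0 in sBAT SVF; DLK1 then had an adjusted p of 0.0827 (limma), while PI16 and WNT2 were called in every alternative that was run.

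Extracellular matrix genes gave calls in 1 direction. Of 53 tested members, 7 were higher in iBAT SVF and 0 in sBAT SVF, against 0.692% and 0.633% of all tested genes. The median log2 fold change was 0.48. At an unadjusted p under 0.05, 24 members lay on the iBAT side and 0 on the sBAT side, where 7.73% and 6.11% of all tested genes did. COL1A1, which encodes the main chain of type I collagen, stood at 16460, 24680 and 14570 FPKM in iBAT SVF and at 4797, 4372 and 7366 in sBAT SVF. The lowest iBAT library lay well above the highest sBAT library, and the log2 fold change was 1.75 ± 0.38 (limma adjusted p = 0.0269).

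COL1A2, the partner chain, gave 1.46 (limma adjusted p = 0.0476). MFAP4, a protein of the microfibrils that carry elastin, stood at 835, 1046 and 1581 FPKM against 193, 159 and 349. LOX, the enzyme that crosslinks collagen and elastin, stood at 101, 139 and 85.6 FPKM against 19.6, 24.1 and 40.5. Neither gene overlapped between the depots, and the log2 fold changes were 2.33 ± 0.40 for MFAP4 and 1.95 ± 0.27 for LOX (limma adjusted p = 0.00426 and 0.000906).

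The small matrix proteoglycans PRELP and PODN and the microfibril gene FBN2 completed the 7, with log2 fold changes of 1.73, 1.28 and 1.08. PRELP stood at 156, 224 and 112 FPKM against 42.7, 34.4 and 68.9. Basement membrane and some interstitial genes of the list overlapped: LAMB1, a laminin chain, ranged from 130 to 142 FPKM in iBAT SVF and from 141 to 160 in sBAT SVF, and FBN1 from 534 to 613 and from 454 to 615. Summed over the list, levels were 63700 to 102000 FPKM in iBAT SVF and 31900 to 44600 in sBAT SVF. When sBAT replicate 2 was left out, 3 members were called, all higher in iBAT SVF, and COL1A1 had an adjusted p of 0.142 (limma).

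Among 21 tested matrix proteases and their inhibitors, 3 were higher in iBAT SVF and 0 in sBAT SVF. This compares with 0.692% and 0.633% of all tested genes, and the median log2 fold change of the list was 0.48. TIMP3, which blocks matrix metalloproteases, stood at 685, 498 and 487 FPKM against 231, 146 and 234 (log2 fold change 1.46, limma adjusted p = 0.0027). ADAM12, a membrane protease, gave 1.07 (limma adjusted p = 0.0137). MMP27, a metalloprotease outside this list, was among the leading genes at 41.7, 75.8 and 19.3 FPKM against 5.18, 5.59 and 11.6 (2.34 ± 0.43, limma adjusted p = 0.00946). Without sBAT replicate 2, MMP27 had an adjusted p of 0.068 (limma). MMP2, the gelatinase of fibroblasts, overlapped, at 568 to 1070 FPKM against 364 to 635.

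The list of genes that fold, modify and export collagen and other secreted proteins was put together after the values had been seen, so its count is a description. Of 82 tested members, 9 were higher in iBAT SVF and 0 in sBAT SVF, against 0.692% and 0.633% of all tested genes. At an unadjusted p under 0.05 the numbers were 33 and 0, against 7.73% and 6.11%. CREB3L1, a membrane-bound transcription factor that switches on collagen and secretory genes, stood at 103, 140 and 87.0 FPKM against 29.7, 23.1 and 48.3. No sBAT library reached the lowest iBAT library, and the log2 fold change was 1.71 ± 0.25 (limma adjusted p = 0.00165). PYCR1, which makes proline, gave 1.30, and KRTCAP2 and OST4, subunits of the enzyme that attaches sugars to new proteins, gave 1.17 and 1.03 (limma adjusted p = 0.0189, 0.00778 and 0.0327). SEC61A1 and SEC61B, the channel through which proteins enter the endoplasmic reticulum, gave 0.55 and 0.94. HSPA5, the chaperone induced when unfolded proteins pile up there, overlapped between depots, at 209 to 292 FPKM against 244 to 283. With sBAT replicate 2 left out, 2 members were called.

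**Figure D3:**
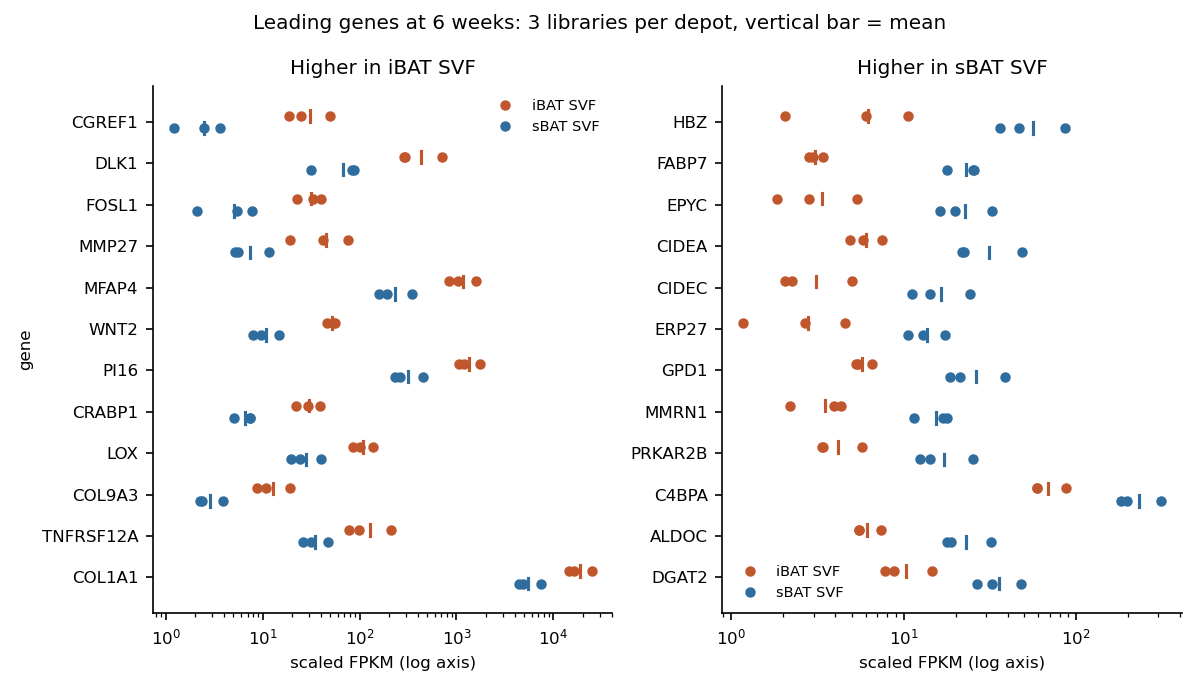
Scaled FPKM on a log axis of the 12 leading genes of each direction, with 1 point per library (orange iBAT SVF, blue sBAT SVF, 3 each) and a bar at each mean. No gene overlaps between the depots; levels run from 1.17 FPKM (ERP27, lowest iBAT library) to 24680 (COL1A1, highest iBAT library).

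Positional genes differed in 1 direction among the calls. Of 39 tested HOX and other positional transcription factors, 4 were higher in iBAT SVF and 0 in sBAT SVF. Among all tested genes 0.692% and 0.633% were, and the median log2 fold change of the list was 0.33. HOXC8, a HOX gene of the trunk, stood at 2.18, 1.56 and 5.03 FPKM in iBAT SVF and at 0.0335, 0.107 and 0 in sBAT SVF. It was near the bottom of the scale in all 3 sBAT libraries and above 1 in all 3 iBAT libraries (log2 fold change 1.81 ± 0.28, limma adjusted p = 0.00239). ZIC1, a zinc finger factor of the dorsal embryo and a known mark of interscapular brown fat in mice, stood at 2.04, 3.35 and 2.42 FPKM against 0.201, 0.242 and 0.0738. Its log2 fold change was 1.61 ± 0.24 (limma adjusted p = 0.00165), and the call held in each of the 16 alternatives in which it was tested. HOXC8 and ZIC1 met the minimum of 1 FPKM through the iBAT libraries alone, where they were high. Filter and call are thus not independent for these genes.

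PRRX2, a homeobox factor of limb and face mesenchyme, stood at 34.7, 40.5 and 21.1 FPKM against 8.85, 7.09 and 15.01, and NR2F1, an orphan nuclear receptor, at 14.7, 14.1 and 17.4 against 4.56, 6.31 and 7.28. Both were higher in iBAT SVF (1.56 and 1.23, limma adjusted p = 0.00349 and 0.0404). EN1, a factor of the dermomyotome, the embryonic tissue that gives rise to interscapular brown fat in mice, did not overlap between the depots but missed the threshold, at 5.97, 7.83 and 6.40 FPKM against 3.80, 3.20 and 2.76 (limma adjusted p = 0.0794). TBX15, a T-box factor of brown and some white fat, stood at 24.9 to 30.0 FPKM against 19.6 to 21.3 (limma adjusted p = 0.312). On the other side TBX18, another T-box factor, stood at 3.71 to 5.60 FPKM against 7.39 to 8.38 and did not pass (limma adjusted p = 0.107). DMRT2, a factor of the dermomyotome outside the list and named after its values were seen, stood at 2.48, 3.34 and 2.38 FPKM against 0.193, 0.0775 and 0.129 (1.71, limma adjusted p = 9.59e-05). It also met the minimum through the iBAT libraries alone. Of the 4 listed genes, 3 were called without sBAT replicate 2.

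Signalling genes differed in small numbers and in both directions. Of 29 tested WNT pathway genes, 2 were higher in iBAT SVF and 0 in sBAT SVF, against 0.692% and 0.633% of all tested genes. Besides WNT2 this was WNT9A, a second ligand, at 6.78, 5.16 and 6.82 FPKM against 2.03, 1.53 and 3.53 (1.14, limma adjusted p = 0.0251; 0.157 without sBAT replicate 2). Receptors did not pass, such as FZD4 at 18.5 to 22.4 FPKM against 28.9 to 31.4 (limma adjusted p = 0.337), nor did AXIN2, a common target of the pathway, at 1.31 to 3.74 against 0.969 to 1.59. The median of the list was 0.18, and on the deposited values without scaling it was -0.09.

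Of 43 tested genes of the TGF-beta and BMP pathways, 2 were higher in iBAT SVF and 1 in sBAT SVF. The shares of all tested genes were 0.692% and 0.633%. BMP3, a member of the BMP family that restrains bone formation, stood at 4.08, 4.70 and 4.44 FPKM against 1.15, 0.543 and 0.627 (1.62 ± 0.31, limma adjusted p = 0.0116). CHRD, the secreted BMP antagonist chordin, gave 1.04, and the receptor ACVR2A gave -0.64 (limma adjusted p = 0.0284 and 0.0331). Without sBAT replicate 2 none of these 3 was called; BMP3 then had an adjusted p of 0.0764 (limma).

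Of 45 tested genes of the hedgehog, FGF, IGF and retinoid pathways, 2 were higher in each depot. Over all tested genes, 0.692% were higher in iBAT SVF and 0.633% in sBAT SVF. The median of the list was 0.03, or -0.18 on the deposited values. The 2 genes higher in iBAT SVF both encode cellular carriers of retinoic acid. CRABP1 stood at 29.4, 22.2 and 38.8 FPKM against 5.06, 7.48 and 7.48, and CRABP2 at 116, 96.9 and 93.9 against 15.6, 41.4 and 41.8. Their log2 fold changes were 2.004 ± 0.43 and 1.73 ± 0.41 (limma adjusted p = 0.0277 and 0.0418). Higher in sBAT SVF were 2 secreted growth factors: IGF1, at 60.7, 50 and 43.7 FPKM against 105, 95.3 and 140 (-1.12, limma adjusted p = 0.0339), and FIGF, the lymphatic growth factor VEGF-D, at 0.834, 1.43 and 0.884 against 4.85, 2.15 and 4.76 (-1.22, limma adjusted p = 0.0387). Of the 4, FIGF alone was called without sBAT replicate 2, but it lost the call in 8 of its 16 alternatives, among them without any 1 of the other 5 libraries (limma adjusted p of 0.00355 to 0.194 over the 16). CRABP2 and IGF1 each lost the call in 9 of 17 alternatives, and CRABP1 in 5.

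Among 32 tested immediate early and stress genes, 2 were higher in iBAT SVF and 0 in sBAT SVF. All tested genes gave 0.692% and 0.633%. FOSL1, the AP-1 subunit FRA1, stood at 39.8, 22.7 and 33.3 FPKM against 2.11, 5.46 and 7.76. The 3 iBAT libraries lay well above the 3 sBAT libraries, at a log2 fold change of 2.52 ± 0.34 (limma adjusted p = 0.000906), and the call held in every alternative. MYC stood at 198 to 241 FPKM against 90.1 to 141 (0.89, limma adjusted p = 0.0262). At an unadjusted p under 0.05, 11 members lay on the iBAT side and 3 on the sBAT side. Of all tested genes 7.73% and 6.11% did. FOS and JUN, early AP-1 genes, overlapped, at 838 to 1135 FPKM against 732 to 1200 and at 619 to 685 against 500 to 683. KLF10, TRIB1 and TNFAIP3, inducible genes outside the list and named after their values were seen, were higher in iBAT SVF, at 0.995, 0.95 and 0.85 (limma adjusted p = 0.00239, 0.0356 and 0.0197). The part of tissue handling was not tested. TNFRSF12A, the receptor of the cytokine TWEAK, stood at 209, 77.6 and 99.8 FPKM against 31.2, 26.4 and 47.2 (1.76 ± 0.40, limma adjusted p = 0.0356). PLAUR, the urokinase receptor, stood at 48.3, 33.0 and 45.6 FPKM against 14.8, 10.4 and 13.5 (1.64, limma adjusted p = 0.00165). CGREF1, a secreted calcium-binding protein, had the largest fold change of the leading genes, at 25.0, 49.7 and 18.9 FPKM against 1.22, 2.50 and 3.68 (3.17 ± 0.51, limma adjusted p = 0.0027). It was called in every alternative that was run. MYC and TNFRSF12A were not called without sBAT replicate 2 (limma adjusted p = 0.166 and 0.185).

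Of 27 tested adipocyte genes, 6 were higher in sBAT SVF and 0 in iBAT SVF, against 0.633% and 0.692% of all tested genes. The median log2 fold change was -0.35. FABP7, a fatty acid binding protein that was on the list, stood at 2.81, 2.97 and 3.41 FPKM in iBAT SVF and at 25.2, 25.4 and 17.9 in sBAT SVF. Which cells held FABP7 was not tested. The iBAT values were nearly equal and all 3 sBAT values lay far above them, with a log2 fold change of -2.54 ± 0.41 (limma adjusted p = 0.0027). GPD1, which makes the glycerol backbone of fat, stood at 5.46, 6.51 and 5.27 FPKM against 21.1, 38.8 and 18.6 (-1.94 ± 0.29, limma adjusted p = 0.00165).

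CIDEC, a protein of the lipid droplet surface, stood at 2.23, 5.03 and 2.04 FPKM against 11.2, 24.1 and 14.2. DGAT2, which performs the last step of triglyceride synthesis, stood at 8.71, 14.5 and 7.79 FPKM against 32.6, 48.1 and 26.5. Both were higher in sBAT SVF (-2.10 and -1.70, limma adjusted p = 0.0225 and 0.0197), and sBAT replicate 2 was the highest library for CIDEC, DGAT2 and GPD1. ELOVL6 and MID1IP1, genes of fatty acid synthesis, were the remaining 2, at -0.88 and -0.68. PRKAR2B, a regulatory subunit of protein kinase A, and ALDOC, a glycolytic aldolase, were among the leading genes outside the list, at -1.78 and -1.71 (limma adjusted p = 0.0281 and 0.0027).

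The most abundant adipocyte genes did not follow them. FABP4 ranged from 1653 to 3237 FPKM in iBAT SVF and from 1726 to 3547 in sBAT SVF, and CD36, a fatty acid transporter, from 300 to 527 and from 298 to 427. ADIPOQ overlapped as given above (log2 fold change 0.43, limma adjusted p = 0.748). The summed level of the list was 2850 to 5560 FPKM in iBAT SVF and 3110 to 5550 in sBAT SVF. RETN, the hormone resistin, was at 0 in all 6 libraries. In bulk samples fewer cells of a type and less RNA per cell cannot be told apart, and the part of residual fat cells in these differences was not tested.

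Of 7 tested brown fat genes, 2 were higher in sBAT SVF and 0 in iBAT SVF, against 0.633% and 0.692% of all tested genes. The median was -0.54. CIDEA, the lipid droplet protein of brown fat cells, stood at 7.44, 4.85 and 5.82 FPKM against 22.4, 48.8 and 21.8 (-2.10 ± 0.37, limma adjusted p = 0.00599). EBF2, the transcription factor that marks cells committed to brown fat, stood at 22.9, 23.3 and 17.0 FPKM against 38.6, 31.0 and 35.4 (-0.71 ± 0.17, limma adjusted p = 0.0412). The call of EBF2 was lost in 11 of 17 alternatives, among them without any 1 of the 6 libraries, while CIDEA lost its call in 1. Neither gene overlapped between the depots. COX7A1, a mitochondrial protein of brown fat and muscle, overlapped, at 1.58 to 5.09 FPKM against 4.77 to 15.8. The 35 tested genes of oxidative phosphorylation had 0 calls by limma in either direction and a median of -0.14. At an unadjusted p under 0.05, 7 lay on the sBAT side and 0 on the iBAT side, against 6.11% and 7.73% of tested genes. Without sBAT replicate 2, which held the highest UCP1, CIDEA and COX7A1, 2 adipocyte genes and 0 brown fat genes were called, and CIDEA had an adjusted p of 0.0606 (limma); GPD1 and FABP7 were called in every alternative.

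Sterol genes formed a further group, again put together after the values had been seen. Of 25 tested genes of cholesterol synthesis and its control, 5 were higher in sBAT SVF and 0 in iBAT SVF. Among all tested genes the shares were 0.633% and 0.692%. At an unadjusted p under 0.05, 16 lay on the sBAT side and 1 on the iBAT side, against 6.11% and 7.73% of tested genes. ACSS2, which makes acetyl-CoA from acetate, stood at 8.07, 9.28 and 8.56 FPKM against 21.6, 23.8 and 17.1. Both groups were tight, and the log2 fold change was -1.17 ± 0.17 (limma adjusted p = 0.00165). INSIG1, the membrane protein that holds back the sterol regulator SREBP, stood at 21.1, 22.8 and 26.2 FPKM against 43.5, 41.6 and 43.1 (-0.85, limma adjusted p = 0.0344). IDI1 and FDFT1, enzymes of the synthesis, gave -1.02 and -0.81, and STARD4, a carrier of cholesterol, gave -0.998. The list summed to 241 to 284 FPKM in iBAT SVF and 369 to 384 in sBAT SVF. ACSS2 alone of the 5 was called without sBAT replicate 2.

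**Figure D4:**
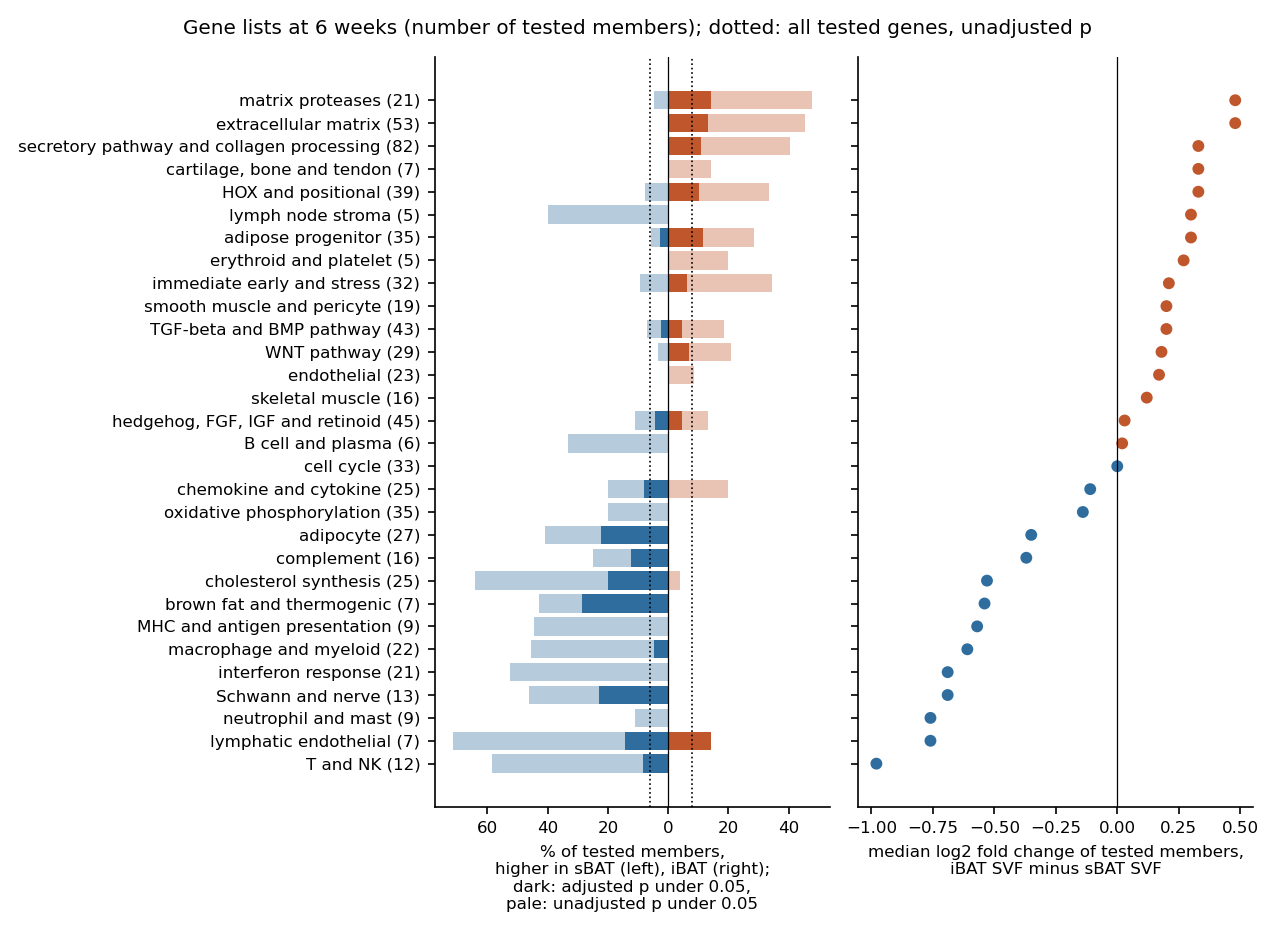
Left, the percentage of each list's tested members (number in brackets) higher in sBAT SVF (blue, to the left) or in iBAT SVF (orange, to the right), dark at an adjusted and pale at an unadjusted p under 0.05; dotted lines mark 6.11% and 7.73% of all tested genes at the unadjusted p. Right, the median log2 fold change of the tested members, from -0.98 for the T and NK cell list to 0.48 for the extracellular matrix and protease lists. Lists with under 5 tested members are left out. The cholesterol synthesis and secretory pathway lists were put together after the values had been seen, so their bars are a description.

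Of 22 tested macrophage and myeloid genes, 1 was higher in sBAT SVF and 0 in iBAT SVF, against 0.633% and 0.692% of tested genes. At an unadjusted p under 0.05 the numbers were 10 and 0, against 6.11% and 7.73%. The median of the list was -0.61. The 1 gene called was CX3CR1, the fractalkine receptor of monocytes and resident macrophages, at 0.745, 0.532 and 0.606 FPKM against 2.16, 2.28 and 2.35 (-1.01, limma adjusted p = 0.0269). It met the minimum of 1 FPKM through the sBAT libraries alone. MRC1 and CD163, scavenger receptors of tissue macrophages, stood at 24.5 to 53.7 and 8.61 to 25.0 FPKM in iBAT SVF against 72.6 to 101 and 32.8 to 54.2 in sBAT SVF, without passing (limma adjusted p = 0.217 and 0.234). The summed level of the list was 430 to 833 FPKM in iBAT SVF and 937 to 1250 in sBAT SVF, and iBAT replicate 3 was the lowest library for both receptors.

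Of 12 tested T and NK cell genes, 1 was higher in sBAT SVF, against 0.633% of all tested genes. All 12 had a negative fold change, as did 5951 of the 11846 tested genes, and the median of the list was -0.98. ICOS, a co-stimulator of activated T cells, stood at 0.433, 0.290 and 0.169 FPKM against 2.94, 1.82 and 2.07 (-1.33, limma adjusted p = 0.0343). It met the minimum of 1 FPKM through the sBAT libraries alone, and it lost the call in 9 of its 16 alternatives. CD3E, part of the T cell receptor complex, stood at 1.01, 1.29 and 0.288 FPKM against 4.08, 2.98 and 3.68 (limma adjusted p = 0.154). The summed level was 13.4 to 16.9 FPKM in iBAT SVF and 31.9 to 48.3 in sBAT SVF. CXCL11 and CXCL9, chemokines that attract activated T cells, were the 2 calls among 25 tested chemokine and cytokine genes. Both were higher in sBAT SVF, as were 0.633% of all tested genes. The list as a whole did not lean to a depot. At an unadjusted p under 0.05, 5 members lay on the iBAT side and 5 on the sBAT side, against 7.73% and 6.11% of tested genes. Its median was -0.11. CXCL11 stood at 0.489, 0.943 and 0.795 FPKM against 10.7, 5.59 and 3.36 (-2.005 ± 0.38, limma adjusted p = 0.0112), and CXCL9 at 0.645, 0.532 and 1.41 against 2.66, 2.73 and 2.52 (-0.99, limma adjusted p = 0.0277). CXCL11 met the minimum of 1 FPKM through the sBAT libraries alone.

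CXCR6 and CCR4, chemokine receptors of T cells outside the lists and named after their values were seen, were higher in sBAT SVF, at -1.41 and -1.10 (limma adjusted p = 0.034 and 0.0412). Both met the minimum through the sBAT libraries alone. The 21 tested interferon response genes had 0 calls by limma, with a median of -0.69. At an unadjusted p under 0.05, 11 lay on the sBAT side and 0 on the iBAT side, against 6.11% and 7.73% of tested genes. In the complement list of 16 tested genes, C4BPA and CD59, the inhibitor of the membrane attack complex, were higher in sBAT SVF. Of all tested genes, 0.633% were. CD59 stood at 12.4, 15.6 and 10.97 FPKM against 29.8, 25.2 and 28.5 (-1.05, limma adjusted p = 0.0277). Of the calls in these immune lists, CXCL11 alone held without sBAT replicate 2, and it was lost in 4 of its 16 alternatives, among them without sBAT replicate 1 and without iBAT replicate 1 (limma adjusted p of 0.000216 to 0.19 over the 16).

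Of 7 tested lymphatic endothelial genes, 6 had a negative fold change, with a median of -0.76. At an unadjusted p under 0.05, 5 lay on the sBAT side and 1 on the iBAT side, against 6.11% and 7.73% of tested genes. Of the members called, MMRN1, a secreted protein of lymphatic endothelium, was higher in sBAT SVF, at 3.92, 2.19 and 4.33 FPKM against 17.7, 16.8 and 11.5 (-1.88 ± 0.39, limma adjusted p = 0.0212). PROX1, the transcription factor that defines lymphatic endothelium, stood at 0.767, 0.471 and 0.785 FPKM against 1.81, 1.77 and 1.58, and LYVE1, a hyaluronan receptor shared with macrophages, at 116, 83.1 and 47.2 against 164, 137 and 143. Neither passed (limma adjusted p = 0.139 and 0.338). PDPN, which is also made by fibroblasts, was higher in iBAT SVF, at 51.8, 20.4 and 17.3 FPKM against 4.64, 7.05 and 15.2 (1.602, limma adjusted p = 0.046). Neither call held without sBAT replicate 2. Over 17 alternatives MMRN1 lost the call in 4 and PDPN in 9. Blood endothelial genes had 0 calls by limma among 23 tested. At an unadjusted p under 0.05, 2 lay on the iBAT side and 0 on the sBAT side, against 7.73% and 6.11% of tested genes. Their summed level ranged from 792 to 2020 FPKM in iBAT SVF and from 670 to 1010 in sBAT SVF.

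Of 13 tested Schwann cell and nerve genes, 3 were higher in sBAT SVF and 0 in iBAT SVF. The shares of all tested genes were 0.633% and 0.692%. All 13 members had a negative fold change, and the median of the list was -0.69. SCN7A, a sodium channel of Schwann cells, stood at 1.66, 1.12 and 1.91 FPKM against 5.77, 7.12 and 7.14 (-1.59 ± 0.30, limma adjusted p = 0.012). Its iBAT values were all under the lowest sBAT value. GFRA3, a receptor of neurotrophic ligands, gave -1.25 (limma adjusted p = 0.046), and S100B, a calcium-binding protein of glia, stood at 4.10 to 7.04 FPKM against 8.59 to 17.0 without passing (limma adjusted p = 0.189). PMP22, a myelin gene that fibroblasts also express, overlapped, at 87.3 to 138 FPKM against 118 to 129. The summed level of the list was 130 to 199 FPKM in iBAT SVF and 192 to 245 in sBAT SVF; without sBAT replicate 2 none of the 3 was called.

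HBZ, an embryonic-type globin chain of red blood cells, had the largest fold change of the leading genes on the sBAT side, at 6.05, 10.5 and 2.05 FPKM against 46.4, 85.6 and 36.2 (-3.09 ± 0.63, limma adjusted p = 0.0197). The adult-type chain HBB2 overlapped, at 156, 374 and 70.2 FPKM against 350, 736 and 338 (limma adjusted p = 0.365). Within each depot replicate 2 was the highest and replicate 3 the lowest library for both genes. The summed level of the erythroid and platelet list was 98.3 to 399 FPKM in iBAT SVF and 356 to 758 in sBAT SVF, and the part of blood left in the preparations was not tested. EPYC, a small proteoglycan of cartilage, and ERP27, an endoplasmic reticulum protein, completed the leading genes on the sBAT side, at -2.48 and -2.03 (limma adjusted p = 0.0387 and 0.0027). Of these, ERP27 was called without sBAT replicate 2 and HBZ and EPYC were not (limma adjusted p = 0.121 and 0.0964).

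Smooth muscle and pericyte genes (19 tested), cell cycle genes (33 tested) and skeletal muscle genes (16 tested) had 0 calls by limma and 0 genes at an unadjusted p under 0.05 in either direction. PCNA, a clamp of DNA replication, ranged from 37.2 to 57.2 FPKM in iBAT SVF and from 41.4 to 57.8 in sBAT SVF. ACTA1, skeletal muscle actin, ranged from 0.278 to 65.0 FPKM in iBAT SVF and from 1.98 to 37.7 in sBAT SVF, so that its spread within a depot was larger than any difference between depots. RGS5, a pericyte gene, ranged from 92.1 to 279 and from 52.4 to 171.

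The depot difference at 6 weeks was set beside that of each other age, which share no library with it. The ages do share the scaling and, for each gene, the estimate of the spread. Calls of a gene at different ages are thus not independent. Of the 157 genes, 114 (72.6%) had the same sign at day 1, 138 (87.9%) at 3 weeks and 148 (94.3%) at 12 weeks, where 54.9%, 54.3% and 62.2% of all tested genes did. At day 1, 3 of the 157 passed in the same direction (1.91% of them, and 21.4% of the 14 genes called at day 1, which were 0.118% of those tested). At 3 weeks 67 passed in the same direction (42.7%, and 6.98% of the 960 called, 8.1% of those tested), and at 12 weeks 89 did (56.7%, and 7.47% of the 1191 called, 10.1% of those tested). In the sBAT libraries of 3 weeks ADORA1 and LOC100009266 took 63.9 to 80.4% of FPKM, and 12416 to 13888 genes were above 0. All values of sBAT SVF at 3 weeks below come from these libraries. The 3 genes shared with day 1 were DMRT2, LAPTM4B and IGSF6. In the opposite direction 2 genes passed at 3 weeks, PLAUR and AQP4, and 0 did so at day 1 or 12 weeks.

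Of the 24 leading genes of 6 weeks, 16 passed in the same direction at 12 weeks, 14 at 3 weeks and 0 at day 1 (limma). In either direction, 10.1%, 8.1% and 0.118% of all tested genes passed at these ages. The 8 leading genes that did not pass at 12 weeks were FOSL1, TNFRSF12A, HBZ, FABP7, EPYC, CIDEA, GPD1 and C4BPA. Of these, C4BPA alone had the opposite sign. The log2 fold change of WNT2 was 0.25 at day 1 and then 1.89, 2.204 and 2.75 in order of age, and it passed at the 3 later ages (limma adjusted p = 0.0021 at 3 weeks and 0.00013 at 12 weeks). In iBAT SVF the mean of WNT2 was 36.6, 39.4, 51.9 and 94.6 FPKM in order of age, and in sBAT SVF it was 29.6, 10.3, 10.8 and 13.4. The means of LOX were 125, 95.6, 108 and 94.5 FPKM in iBAT SVF and 107, 31.3, 28.1 and 18.0 in sBAT SVF. The mean of DLK1 was 727 FPKM at day 1 and 137 at 12 weeks in iBAT SVF, and 267 and 15.3 in sBAT SVF; changes with age within a depot were not tested.

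For ZIC1, CIDEA and C4BPA the levels at the other ages are given, and the test of a change in the depot difference between 6 and 12 weeks passed for none of them (limma adjusted p = 0.139, 0.488 and 0.139). ZIC1 had a depot difference of 1.61 at 6 weeks and of 0.03 at 12 weeks, when the sBAT libraries held 2.85, 3.03 and 2.31 FPKM and the iBAT libraries 2.66, 2.90 and 2.85. The means of CIDEA at 3, 6 and 12 weeks were 69.3, 6.04 and 55.6 FPKM in iBAT SVF, against 64.1, 31.0 and 110 in sBAT SVF. C4BPA had means of 27.2 (iBAT) and 212 (sBAT) FPKM at 3 weeks, but 458 and 247 at 12 weeks, so that its order was turned at 12 weeks without passing there (0.94, limma adjusted p = 0.15).

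**Figure D5:**
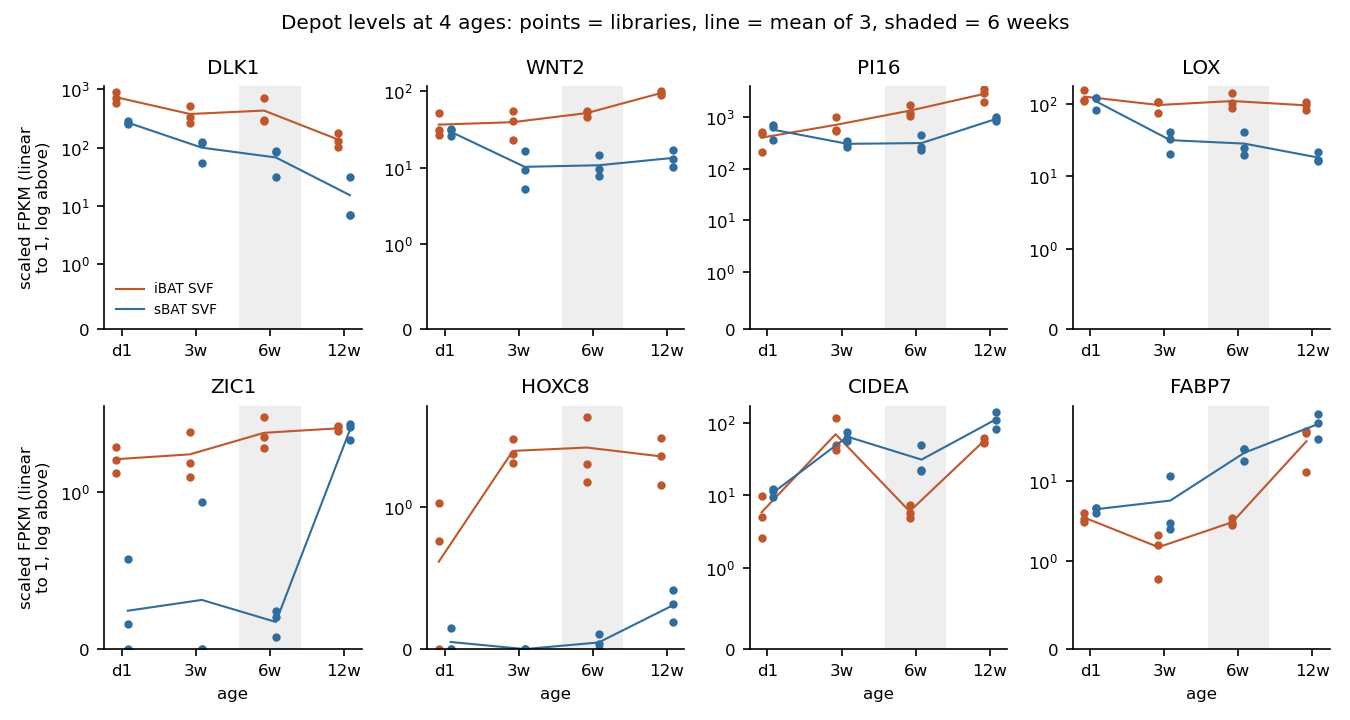
Scaled FPKM of 8 genes in iBAT SVF (orange) and sBAT SVF (blue) at day 1 and at 3, 6 and 12 weeks, with 1 point per library, a line through the means of 3 and the 6-week libraries shaded; the axis is linear up to 1 and logarithmic above. DLK1, WNT2, PI16, LOX and HOXC8 have non-overlapping depots at 6 and 12 weeks, and ZIC1 overlaps at 12 weeks.

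Whether the depot difference itself changed with age was tested over all genes. Against 12 weeks the test called 1 gene of 11846 (0.00844%; 1173 at an unadjusted p under 0.05), and against day 1 it called 3 (0.0253%; 1105 at an unadjusted p under 0.05). These counts depended on the fit: without scaling they were 2 and 129, with upper quartile scaling 24 against day 1, with the compared libraries alone 26 and 7, and with array weights 436 and 88. The gene called against 12 weeks, LOC100356732, was listed at 0 in all 3 iBAT libraries of 6 weeks and above 0 in every other SVF library, and a 0 in such a table can be a failed estimate. LOC100356732 also met the minimum of 1 FPKM through the sBAT libraries of 6 weeks alone. Against day 1 the genes were PLAUR, FAM13C and LOC100346046, the last described in the deposited table as an acyl-CoA desaturase. PLAUR stood at 34.6, 24.5 and 20.3 FPKM in iBAT SVF and at 42.1, 47.7 and 55.9 in sBAT SVF at day 1, the reverse of its order at 6 weeks. The difference of the differences was 2.51 on the log2 scale (limma adjusted p = 0.00615).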

How the data were processed

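RNA of the SVF was sequenced in bulk, and gene levels were deposited by the authors as FPKM, per the file headers. The submitters' processing notes name HISAT2 2.0.4, Bowtie2 2.2.5, DESeq2 and the build OryCun2.0, with no role or order; the quantifier and the annotation are not given in the sources used here. All 24 SVF columns were mapped to samples by the labels. Symbols came from the table, and a RefSeq gene table of another assembly, which matched 17693 (85.9%) of 20589 identifiers, replaced 619 placeholders.

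FPKM were scaled by median ratios over the 24 libraries. Genes at 1 or more in at least 3 of the 6 libraries were tested on log2(FPKM + 1) with limma 3.58.1 (R 4.3.3): 1 mean per group, 8 groups, a variance trend, 16 residual degrees of freedom, two-sided, Benjamini-Hochberg over 11846 genes, called under 0.05. The fit was tested on simulated data. An exact permutation test of 3 against 3 cannot go below 0.1.

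Named were the 12 called genes with the largest fold change per direction (symbol not starting with LOC, a mean of 10 FPKM or more in 1 depot, no overlap), up to 4 called members of each list or else its most abundant member, and ADORA1 and LOC100009266; some of these genes are not reported here. Other members are given as values and were chosen after these were seen, as were 2 of the lists. Members and lists were chosen with earlier results of these data known.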

Additional observations from a re-analysis of the deposited data

Results flagged for a closer look

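In 4 genes the depot difference at 6 weeks differed from that at another age (limma, interaction contrast, Benjamini-Hochberg over 11846 genes). For LOC100356732 the difference at 6 weeks minus that at 12 weeks was -5.358 on the log2 scale (limma adjusted p = 0.0125). It was listed at 0 in all 3 iBAT libraries of 6 weeks and at 16.6, 8.62 and 20.2 FPKM in the sBAT libraries of 6 weeks. In the libraries of 12 weeks it stood at 2.69 to 22.9 FPKM. It met the minimum of 1 FPKM through the sBAT libraries alone, so filter and call are not independent for this gene.

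Against day 1, PLAUR gave 2.511 (adjusted p = 0.00615), FAM13C -1.486 (adjusted p = 0.0344) and LOC100346046 -3.219 (adjusted p = 0.0246). FAM13C stood at 4.31, 3.13 and 5.04 FPKM in iBAT SVF and 2.70, 1.34 and 3.15 in sBAT SVF at day 1, and at 9.70, 10.6 and 10.4 against 20.3, 18.7 and 19.1 at 6 weeks. LOC100346046 stood at means of 2.70 and 0.932 FPKM at day 1 and of 4.95 and 27.7 at 6 weeks. All 3 genes had iBAT and sBAT values that did not overlap at 6 weeks, as did 25.3% of all tested genes. The test that picked them used these same values, so the lack of overlap adds no support.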

How the results depend on the processing

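The 157 calls kept their direction in every alternative in which they were tested (124 of them with a minimum of 5 FPKM), but fewer or more genes passed. On the deposited FPKM without scaling 363 genes passed (47 higher in iBAT SVF, 316 in sBAT SVF), of which 116 were among the 157, and the depot difference changed with age in 2 genes against 12 weeks and 129 against day 1. Array weights gave 875 (533 and 342; 436 and 88 for the change with age), and leaving out the 3 libraries of sBAT SVF at 3 weeks, where ADORA1 and LOC100009266 took 63.9 to 80.4% of FPKM, gave 458 (259 and 199; 19 and 39). No filter gave 101 (53 and 48; 8 against day 1), a minimum of 5 FPKM gave 2 and 5 genes for the change with age, upper quartile scaling 24 against day 1, and an absolute log2 fold change of at least 1 left 49 genes higher in sBAT SVF. With the libraries of the compared groups alone the change with age was called in 26 and 7 genes, and 68 of the 157 depot calls were shared. Why these counts moved was not tested.

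Leaving out 1 library at a time gave 37 to 183 genes between the depots, 23 to 117 higher in iBAT SVF and 14 to 66 higher in sBAT SVF, and 0 to 6 and 1 to 5 genes for the change with age. The lowest count, 37, was without sBAT replicate 1 and the highest without sBAT replicate 3; the count was 43 without sBAT replicate 2, 58, 62 and 81 without iBAT replicates 1, 2 and 3. For libraries of equal replicate number the correlations of deviations were -0.18, -0.29 and -0.12, in a range of -0.29 to 0.45 over all 9 combinations. No library correlated best with its own number. Deviations from a mean of 3 are tied to each other, so these values cannot show whether equal numbers share a rabbit. The labels leave that open. A fit with a replicate block within age called 115 genes (61 and 54), and 3 and 6 for the change with age.

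Over the named genes, 963 values kept their side of the threshold, 252 lost the call and 3 (all DSP, an epithelial junction gene) gained one. The 14 sign changes were in genes that were not called. Without scaling IRF1 gave -0.066, ACTA1 -0.073 and PRG4 -0.071; with a pseudocount of 0.1 ACTA1 gave -0.224. Without 1 library at a time, ACTA1 ranged from -0.999 to 2.05, PRG4 from -0.153 to 0.621, IRF1 from -0.09 to 0.438, RGS5 from -0.01 to 0.832, PCNA from -0.277 to 0.049 and COX4I1 from -0.209 to 0.032. The calls of ACSS2, ALDOC, CGREF1, CREB3L1, ERP27, FABP7, FOSL1, GPD1, LOX, MFAP4, PI16, TIMP3, WNT2 and ZIC1 held in every alternative run. Depth is unknown, and 3 libraries a group limit the precision.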

Other observations

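The HOX genes were also read by paralog number, which counts the position in each cluster from the head end towards the tail; the grouping was chosen after the values were seen, and it was given no test. Among 13 HOX genes of paralogs 1 to 5 in the table, 3 had all iBAT libraries above all sBAT libraries at 6 weeks, 1 had the reverse order and 9 overlapped, and their summed level was 50.8 to 71.4 FPKM in iBAT SVF and 45.0 to 54.1 in sBAT SVF. Among 11 genes of paralogs 6 to 9, 7 had all iBAT libraries above all sBAT libraries, 0 had the reverse order and 4 overlapped, with a summed level of 18.5 to 42.0 FPKM against 9.73 to 12.6. Over all tested genes, 12.9% had all iBAT libraries above all sBAT libraries and 12.5% had the reverse; these HOX counts also hold genes too low to be tested. HOXA6 stood at 4.18, 8.16 and 11.04 FPKM against 2.41, 1.82 and 2.86, HOXB6 at 1.56, 1.89 and 4.37 against 0.662, 0.504 and 0.249, and HOXB8 at 0.911, 0.810 and 2.07 against 0.0251, 0 and 0.0277. Of these genes, HOXC8 alone passed the test over all genes, and 5 of the 11 were high enough to be tested. All 9 genes of paralogs 10 to 13 overlapped, at a summed level of 0.133 to 1.13 FPKM against 0.369 to 0.650. Replicate 3 held the highest iBAT value of HOXA6, HOXB6, HOXB8 and HOXC8.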
